A study of Mus musculus with 26 samples.

Results

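The libraries of the choroid plexus (ChP) held 150 genes with a solute carrier (Slc) symbol at or above a minimum level. Left out were families for glucose, bicarbonate, iron and other divalent metals, cation-chloride cotransport and monocarboxylates. Families for folate and thiamine, phosphate, organic ions, ascorbate, mitochondrial metabolites and haem-folate transport were also left out. The members were chosen by symbol, as every gene named Slc with a family number and the letter a, and every Slc35 gene, that was not in 1 of 12 excluded families and had a mean of at least 1 count per 1000000 of the library (CPM) in both main groups. Of 242 genes with such a symbol, 92 lay below that level, and the 150 that remained were part of 13697 genes tested among 55416 in the table. By substrate they were divided into 42 carriers of amino acids and peptides, 20 of zinc, manganese and copper, 23 of the nucleotide sugar family Slc35, 25 of other ions and 37 of other organic solutes. The symbols of the last 3, Slc9a3r1, Slc9a3r2 and Slc7a6os, match the rule, but they encode scaffold proteins and a nuclear import factor and no transporter. At the limit of 1 CPM, Slc27a5, Slc1a1 and Slc38a11 lay just inside with unscaled means of 1.01, 1.17 and 1.19 CPM in Ctrl, and Slc3a1, Slc30a10 and Slc45a3 lay just outside with 0.917, 0.864 and 0.838 CPM. Some members, such as Slc27a5, Slc27a2 and Slc38a4, passed only through single high libraries. The medians of these genes were 0.281 CPM or less in both groups, so passing the minimum does not show that the ChP itself expresses a gene.

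The RNA came from the ChP of the 4th ventricle of adult male C57BL/6J mice, 12 after sham surgery (Ctrl) and 12 after an electrolytic lesion of the suprachiasmatic nuclei, the central circadian clock (SCNx), kept in constant darkness over 2 days, with 1 mouse of each group sampled per time point at steps of 4 h (CT0 the first, CT44 the last). A second set held 1 mouse at ZT7 and 1 at ZT18 with FoxJ1-ERT2-Cre+/-; Bmal1fl/fl (KO), adult males fed tamoxifen and kept in a light-dark cycle, whose ChP was cut from frozen brain by laser capture. In KO the clock gene Bmal1 is meant to be deleted where Foxj1, a gene of cells with motile cilia, is active when tamoxifen is given. Arntl, the gene of Bmal1, was counted at 11.01 CPM at ZT7 and 8.97 at ZT18 in KO, against a mean of 16.3 in Ctrl, and a count over the whole gene does not separate deleted from remaining exons. Recombination was checked by the study in liver, and no mouse with intact Bmal1 prepared in this way was analysed here. Libraries held 38751201 to 47335258 estimated counts in Ctrl, 41807043 to 49527655 in SCNx, and 17425207 and 18059227 in KO, which was made with another kit.

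Solute carriers are membrane proteins that move ions, metals and small organic molecules across the plasma membrane or the membranes of organelles. In the ChP they sit in the single layer of epithelium between blood and cerebrospinal fluid, and they set what passes between these fluids. The exchangers of the Slc7 family that work as light chains reach the membrane in a pair with a heavy chain, which is Slc3a2 for those among the members. Zinc carriers fall into the Slc39 (ZIP) family, which brings zinc into the cytosol, and the Slc30 (ZnT) family, which takes it out. Slc35 proteins supply the ER and Golgi with activated sugars and other nucleotides for glycosylation.

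Per exon length, the copper importer Slc31a1 had the highest level of all 150 members, 219 ± 19.0 CPM per kb in Ctrl (SD, n = 12). The sulphate carrier Slc13a4 followed with 140 ± 9.72, and then Slc29a4, a carrier of monoamines (98.7 ± 18.6), the zinc importer Slc39a12 (90.0 ± 8.16), the glutamine carrier Slc38a3 (88.1 ± 15.1) and Slc7a10, an exchanger of small neutral amino acids such as serine, glycine and alanine (80.3 ± 21.3). Slc31a1 and Slc13a4 stood apart from each other and from the next gene by more than their SD, whereas Slc29a4, Slc39a12, Slc38a3 and Slc7a10 lay within 1 SD of their neighbours. All further values are in CPM, which depends on transcript length and serves to compare the same gene between mice. Together the members took up 8677 CPM in Ctrl, 27 of them were above 100 CPM, and 48 were below 10.

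Of the 24 Ctrl and SCNx libraries, 4 stood apart in markers of brain cells or hepatocytes before any comparison. Markers of blood were far highest in SCNx CT44, with a sum of 6659 CPM. The next highest SCNx library had 1459 CPM of them, and the SCNx median was 540. Markers of astrocytes summed to 745 CPM in Ctrl CT4 and 733 in SCNx CT32, against medians of 144 and 141 over the 12 libraries of each group, and markers of neurons to 565 and 637, against medians of 151 and 146. For hepatocyte markers the sums were 3275 CPM (Ctrl CT16) and 13869 CPM (SCNx CT0), with medians of 340.0 and 343. Both KO libraries also held brain markers at this height, 780 CPM of astrocytes at ZT7 and 816 at ZT18, and 424 and 550 of neurons. Markers of the ChP epithelium summed to 106156 CPM or more in every Ctrl and SCNx library and to 89958 and 78475 in KO, and no marker of any of these lists was at 0 in all 26 libraries. Of the clock genes in Ctrl, Nr1d1 had a fitted log2 amplitude of 2.50 and Arntl 2.23, against 0.24 and 0.63 in SCNx.

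The first question was which carriers follow a 24 h rhythm when the central clock is intact. A curve with a 24 h period was fitted to the 12 mice of each group, and its log2 amplitude, from the mean to the peak, was tested by the quasi-likelihood method of edgeR, with p-values adjusted after Benjamini and Hochberg over all tested genes. In Ctrl 14 of the 150 members were rhythmic at an adjusted p under 0.05 (9.33%, background 10.7% of all tested genes), so that carriers were called about as often as genes at large. Amino acid carriers made up 5 of the 14, ions 3, other organic solutes 3, the Slc35 family 2 and metals 1. The study, with other programs and another threshold, names the members Slc39a10, Slc6a15 and Slc6a20b as rhythmic in Ctrl. None of these was among the 14 (Slc39a10 adjusted p = 0.155, edgeR). The median amplitude over all members was 0.147 log2 units in Ctrl and 0.109 over all tested genes, and in SCNx it was 0.094 against 0.091. Without Ctrl CT4 and SCNx CT32, the libraries with the brain markers, 30 of 148 members were rhythmic in Ctrl (20.3%, background 16.5%), including all of the 14. Without SCNx CT32 alone there were 31 of 148 (20.9%, background 16.6%), and without Ctrl CT4 alone 16 of 149 (10.7%, background 10.8%). Both groups were fitted with a common estimate of the spread, so leaving out an SCNx library can change the calls in Ctrl.

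**Figure D1:**
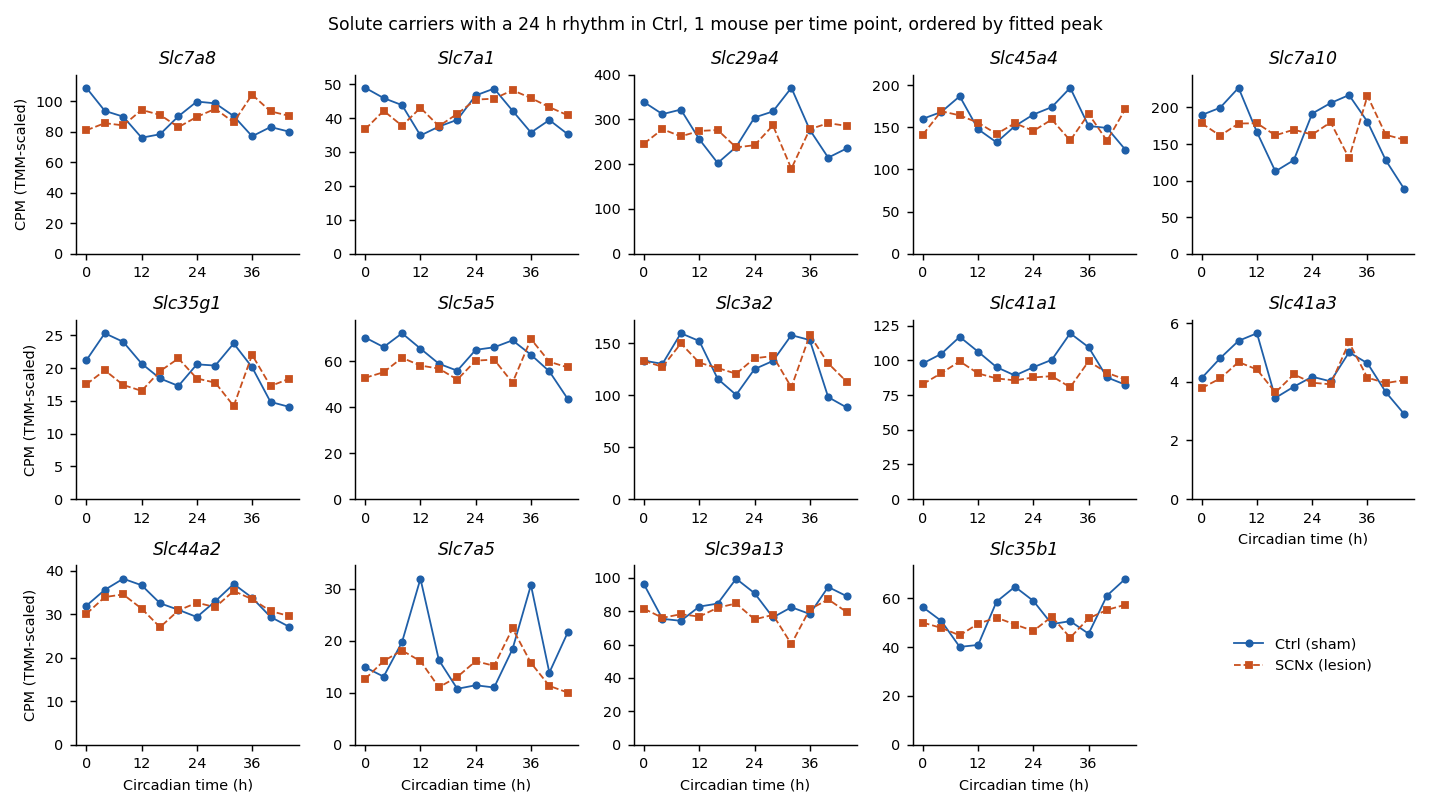
CPM of the 14 carriers rhythmic in Ctrl against circadian time in hours, 1 mouse per point, Ctrl as blue circles and SCNx as orange squares, ordered by fitted peak; every vertical axis starts at 0. Most Ctrl traces crest near CT8 and CT32 and fall towards CT16 to CT20 and CT44, Slc35b1 and Slc39a13 run opposite, and Slc7a5 has single high points at CT12 and CT36.

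Among the amino acid exchangers, the heavy chain Slc3a2 and 3 of its 6 light chains among the members were rhythmic. Slc7a10 ranged from 88.3 CPM over a median of 185 to 227 in the 12 Ctrl mice and from 131 over 166 to 216 in SCNx. In Ctrl it was high from CT0 to CT8 and from CT24 to CT32 and low at CT16, CT20, CT40 and CT44, whereas all SCNx mice except those at CT32 and CT36 lay between 156 and 179.7 CPM. Its fitted curve had a log2 amplitude of 0.53 ± 0.08 (SE, n = 12 mice), a 2.07-fold difference of peak and trough, and a peak at 6.03 h (edgeR adjusted p = 0.000498). In the reference annotation, 377 exonic bases of Slc7a10 (17.9%) also belong to Lrp3 on the opposite strand.

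Slc7a8, the light chain known as LAT2 that exchanges neutral amino acids, ranged from 76.2 CPM over 90.1 to 109 in Ctrl and from 81.0 over 90.2 to 104.4 in SCNx. The Ctrl mice at CT0, CT24 and CT28 were highest and those at CT12 and CT36 lowest, and the SCNx values lay inside the Ctrl range. Its amplitude in Ctrl was 0.20 ± 0.03 with a peak at 1.93 h (edgeR adjusted p = 0.00240). Slc7a5, the light chain known as LAT1 that carries large neutral amino acids, ranged from 10.7 CPM over 15.6 to 31.9 in Ctrl. The mice at CT12 and CT36 reached 31.9 and 30.7 CPM and every other Ctrl mouse was at 21.6 or lower, and the call (adjusted p = 0.0144, edgeR) was lost without Ctrl CT12 (0.0824) or Ctrl CT36 (0.0722).

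Slc3a2 ranged from 88.2 CPM over 131.5 to 159.5 in Ctrl and from 108 over 131 to 158 in SCNx. Ctrl mice at CT8, CT12, CT32 and CT36 were highest, and its fitted peak at 7.80 h (amplitude 0.34 ± 0.06, edgeR adjusted p = 0.00319) fell between those of Slc7a10 and Slc7a5. The other light chains did not pass the test in Ctrl, Slc7a11, the cystine-glutamate exchanger, with an adjusted p of 0.668, Slc7a6 with 0.749 and Slc7a7 with 0.820. Slc7a1, which takes up cationic amino acids without the heavy chain, was rhythmic with 34.9 to 48.9 CPM in Ctrl, an amplitude of 0.22 ± 0.04 and a peak at 2.80 h (edgeR adjusted p = 0.00995).

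Of the ion carriers, 2 of 3 members for magnesium were rhythmic, with peaks within the same hour. The third, Slc41a2, with an unscaled mean of 21.7 CPM in Ctrl, was not called. Slc41a1, which exports magnesium from the cell, ranged from 82.5 CPM over 99.2 to 119.7 in Ctrl and from 80.7 over 88.2 to 99.4 in SCNx. The highest Ctrl mice were those at CT8 and CT32 and the lowest that at CT44, and the amplitude was 0.21 ± 0.03 with a peak at 7.97 h (edgeR adjusted p = 0.000479). Slc41a3, a magnesium carrier of mitochondria, was far scarcer at 2.90 to 5.65 CPM, with a peak at 7.98 h and an amplitude of 0.31 ± 0.07 (edgeR adjusted p = 0.0151), and this call was lost without Ctrl CT44 (0.0757). Slc5a5, the sodium-iodide symporter, ranged from 43.5 CPM over 65.1 to 72.1 in Ctrl with a peak at 6.48 h (amplitude 0.21 ± 0.06, edgeR adjusted p = 0.0388) and lost its call in 10 of 34 alternative analyses, among them those without Ctrl CT8, CT12, CT20, CT32, CT36, CT40 or CT44 (adjusted p of up to 0.125).

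Among carriers of other organic solutes, Slc29a4 ranged from 203 CPM over 291 to 371 in Ctrl and from 190.0 over 275 to 292 in SCNx. The Ctrl mice at CT0 and CT32 were highest and those at CT16 and CT40 lowest, and the fitted amplitude was 0.34 ± 0.05 with a peak at 4.89 h (edgeR adjusted p = 0.00319). Slc44a2, a choline transporter-like protein, moved within 27.1 to 38.2 CPM with a peak at 8.31 h (amplitude 0.18 ± 0.03, edgeR adjusted p = 0.00277). Slc45a4, of a family related to sugar transporters, moved within 123 to 197 CPM with a peak at 5.90 h (amplitude 0.22 ± 0.05, edgeR adjusted p = 0.0152), a call lost by a narrow margin without Ctrl CT32 (0.0501) or Ctrl CT44 (0.0567).

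In the Slc35 family, the smallest adjusted p of all members belonged to Slc35b1, which brings ATP into the ER lumen. It ranged from 40.1 CPM over 53.5 to 68.0 in Ctrl and from 43.9 over 49.8 to 57.4 in SCNx, with the highest Ctrl mice at CT20 and CT44 and the lowest at CT8 and CT12, and its curve peaked at 20.6 h (amplitude 0.30 ± 0.05, edgeR adjusted p = 0.000385). Slc35g1, whose substrate is not settled, peaked at 6.18 h within 14.1 to 25.3 CPM (amplitude 0.31 ± 0.06, edgeR adjusted p = 0.00844). The 1 rhythmic metal carrier was Slc39a13, a zinc carrier of the secretory pathway, at 74.2 to 99.5 CPM with a peak at 19.8 h (amplitude 0.16 ± 0.04, edgeR adjusted p = 0.0268), a call lost without Ctrl CT8 (0.0822) or Ctrl CT20 (0.0676).

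By time of day, 9 of the 14 rhythmic members peaked from 4.5 to 8.5 h (64.3%), against 291 of all 1459 rhythmic genes (19.9%). That window was set after the peaks had been seen, and the share is given without a test. Slc7a8 and Slc7a1 peaked earlier, Slc7a5 at the turn from subjective day to night, and Slc39a13 and Slc35b1 late in the subjective night. A rank test compared the order of the 12 Ctrl values with triangular templates of 24 h. By this test all of the 14 had a Q value under 0.4, and 8 had one under 0.05. Those above 0.05 were Slc7a5 (0.275), Slc39a13 and Slc41a3 (0.0908 each), and Slc5a5, Slc7a1 and Slc35g1 (0.0783 each). The study applied 0.4 to all of its programs together, so 0.4 in this single test is a looser limit. The 14 were also chosen from the same Ctrl values. At a Q value under 0.4, 89 members were called (59.3%, background 50.6%), and under 0.05 there were 12 (8%, background 6.74%). In SCNx the rank test called 0 members at a Q value under 0.4 (background 0.0073%).

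By edgeR, 16 further members were rhythmic without Ctrl CT4 and SCNx CT32 but not with all libraries, and they were named after their values had been seen. They were 4 of amino acids (Slc38a3, Slc36a1, Slc6a9 and Slc1a5), 3 of metals (Slc39a10, Slc39a4 and Slc31a1), 3 of the Slc35 family (Slc35f1, Slc35a1 and Slc35f3), 1 of ions (Slc8a3) and 5 of other organic solutes (Slc5a6, Slc49a4, Slc27a5, Slc27a2 and Slc27a1). Slc38a3 had an adjusted p of 0.00603 without those libraries and 0.0610 with them, and Slc5a6, which takes up biotin and pantothenate, had 0.00856 and 0.0790 (edgeR). For the abundant Slc31a1 the values were 0.0465 and 0.373. Slc27a5, Slc27a2 and Slc8a3 were also among the carriers highest in single libraries, which are described further on.

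The second question was what remained of these rhythms after the SCN lesion. In SCNx no member was rhythmic at an adjusted p under 0.05 by edgeR (background 0%), while 27 had an unadjusted p under 0.05 (18%, background 14.8%), and DESeq2 called 9 (6%, background 3.15%) and limma-trend 0 (background 0%). All of the 14 members rhythmic in Ctrl had a smaller fitted amplitude in SCNx, which the choice of the 14 by Ctrl favours, and over all 150 members the amplitude was larger in Ctrl for 98 (65.3%, background 56.1%). The difference of the rhythm itself, tested over both groups in the same fit, passed for 4 members (2.67%, background 2.12%), and 28 had an unadjusted p under 0.05 (18.7%, background 15.1%).

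Those 4 were Slc7a8 (edgeR adjusted p = 0.0139), Slc7a10 (0.0311), Slc29a4 (0.0344) and Slc35g1 (0.0478). For Slc7a10 the amplitude was 0.53 in Ctrl and 0.04 ± 0.08 in SCNx, and for Slc29a4 0.34 in Ctrl and 0.07 ± 0.08 in SCNx. Slc7a8 had 0.20 in Ctrl and 0.08 ± 0.04 in SCNx, with the SCNx mouse at CT36 highest where the Ctrl mouse was near its trough, and Slc35g1 had 0.31 and 0.09 ± 0.07. Slc7a8 passed in all 33 alternative analyses. Slc7a10 passed in 26, with adjusted p values of up to 0.0677, and missed the threshold without Ctrl CT8, Ctrl CT16, SCNx CT4, SCNx CT16 or SCNx CT20. Slc29a4 passed in 19 and Slc35g1 in 10, with values of up to 0.0918 and 0.102. Without Ctrl CT8 or without SCNx CT16, 1 member passed.

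For the other rhythmic carriers the difference did not pass, which does not show that their rhythms were alike. Slc44a2 kept a fitted amplitude of 0.12 ± 0.03 in SCNx against 0.18 in Ctrl (adjusted p of the difference = 0.482, edgeR), and Slc7a5 had 0.39 ± 0.07 against 0.53 (0.172). Slc35b1 had 0.10 ± 0.04 against 0.30 (0.134), Slc41a1 0.06 ± 0.04 against 0.21 (0.117) and Slc3a2 0.07 ± 0.07 against 0.34 (0.227).

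**Figure D2:**
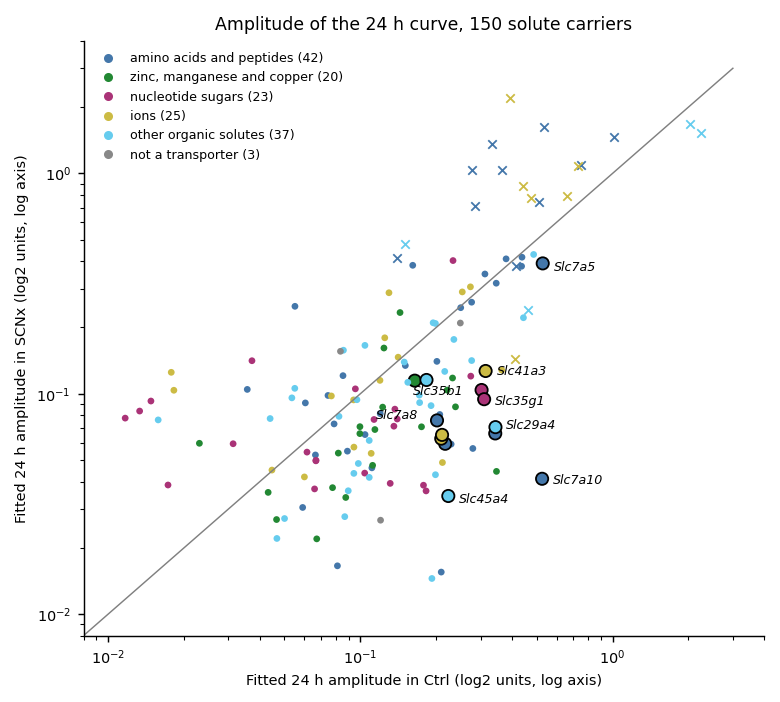
Fitted 24 h amplitude in SCNx against that in Ctrl for the 150 carriers, in log2 units on log axes, coloured by substrate group, with the 14 carriers rhythmic in Ctrl as large outlined points and the 20 carriers highest in single libraries as crosses. All 14 outlined points lie below the line of equality, Slc7a10 farthest with 0.53 against 0.04, and the crosses hold the largest amplitudes of both groups.

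The third question was whether the lesion changed the level of the carriers over the whole 2 days. No member differed between SCNx and Ctrl at an adjusted p under 0.05 by edgeR (background 0%), limma-trend (background 0%) or DESeq2 (background 0.0511%). At an unadjusted p under 0.05 there were 23 members (15.3%, background 9.37%), 21 of them lower in SCNx (14%, background 4.58%) and 2 higher (1.33%, background 4.78%). The fitted level was lower in SCNx for 96 of the 150 (64%, background 43.5%), and the median log2 fold change was -0.04 over the members and 0.01 over all tested genes. Leaving out 1 mouse at a time, 12 to 28 members had an unadjusted p under 0.05 and a lower level in SCNx, with 12 without Ctrl CT32 and 13 without Ctrl CT0.

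The summed markers of the ChP epithelium also had a lower median in SCNx, 148830 CPM against 160645 in Ctrl, with ranges of 106156 to 166715 and 142971 to 166277, and their part in the lower levels of the carriers was not tested. In bulk tissue fewer cells of a type and less RNA per cell cannot be told apart.

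By substrate, the fitted level was lower in SCNx for 16 of 20 metal carriers, 19 of 23 Slc35 members, 28 of 37 carriers of other organic solutes and 18 of 25 of ions, and for 14 of 42 amino acid carriers. The median log2 fold changes were -0.05, -0.07, -0.05, -0.04 and 0.03 in that order. None of these small differences passed the adjusted test for a single gene.

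The member with the smallest p was Slc35e3, a protein of the nucleotide sugar family whose substrate is not settled. It ranged from 38.8 CPM over 42.8 to 47.9 in Ctrl and from 34.6 over 39.6 to 42.8 in SCNx, so that the groups overlapped, and its log2 fold change was -0.13 ± 0.04 (SE, edgeR, unadjusted p = 0.000836, adjusted p = 0.366). Slc35a2, the Golgi carrier of UDP-galactose, had 39.2 ± 3.22 CPM in Ctrl and 35.5 ± 3.01 in SCNx (SD, n = 12) and a log2 fold change of -0.14 ± 0.05. Slc13a4, which carries sulphate, had 633 ± 44.0 and 569 ± 56.7 CPM and -0.15 ± 0.05, and Slc41a1 had 100.5 and 89.2 CPM and -0.17 ± 0.05. Their adjusted p values lay between 0.377 and 0.422 (edgeR).

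Of the 20 metal carriers, 6 had an unadjusted p under 0.05 and all 6 were lower in SCNx (background 4.58% lower and 4.78% higher). They were the copper carrier Slc31a2, the zinc importers Slc39a1, Slc39a7 and Slc39a13, and the exporters Slc30a5 and Slc30a6. The proteins of Slc30a5 and Slc30a6 form a pair that loads the secretory pathway with zinc. Slc30a5 had 130.1 ± 9.55 CPM in Ctrl and 122 ± 9.71 in SCNx (log2 fold change -0.09 ± 0.05), and Slc30a6 had 21.4 ± 1.52 and 20.0 ± 1.46 (-0.10 ± 0.04), with adjusted p values of 0.527 and 0.495 (edgeR). The abundant Slc31a1 had 938 ± 81.2 and 884 ± 88.4 CPM, Slc39a12 had 269.8 ± 24.5 and 261 ± 24.2, and Slc30a9, a carrier of mitochondria, had 152 ± 4.75 and 151 ± 6.73, each with an unadjusted p above 0.05. In the reference annotation 80.7% of the exonic bases of Slc39a7 also belong to a read-through gene on the same strand, so its count is uncertain.

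Among the most abundant carriers of the other groups, Slc38a3 had 465 ± 79.4 CPM in Ctrl and 421 ± 57.2 in SCNx, and Slc38a1, which takes up glutamine, had 241 ± 11.6 and 245 ± 38.7. Slc5a3, the myo-inositol carrier that cells raise in hypertonic fluid, had 338 ± 59.4 and 322 ± 49.2, and Slc5a6 had 202 ± 26.4 and 183 ± 17.6. Slc35a5, Slc35a1, the Golgi carrier of CMP-sialic acid, and Slc35e1 had 70.4, 62.02 and 54.2 CPM in Ctrl and 67.7, 58.0 and 51.7 in SCNx. Of these 7 carriers only Slc5a6 had an unadjusted p under 0.05 (0.0373, log2 fold change -0.15 ± 0.07).

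**Figure D3:**
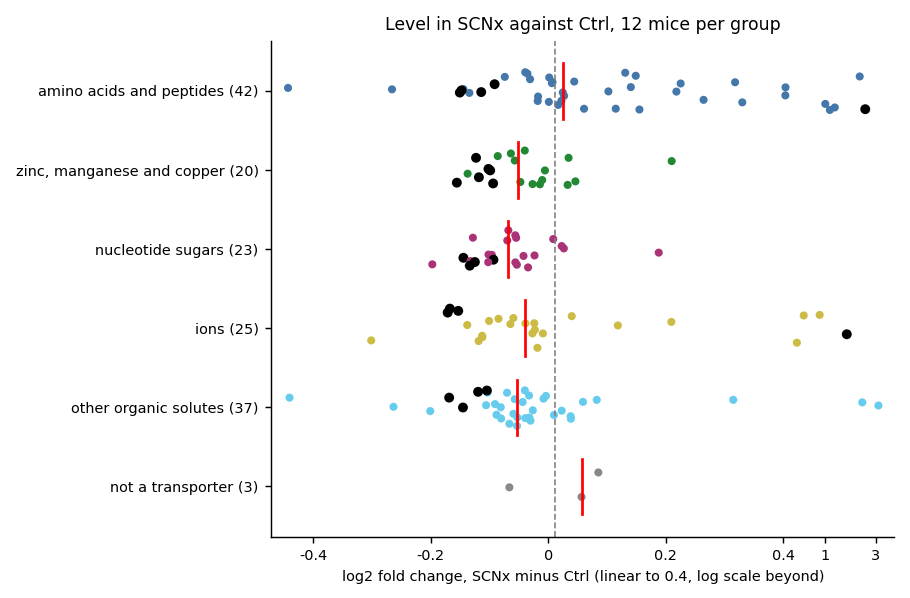
log2 fold change of SCNx against Ctrl for each of the 150 carriers by substrate group (12 mice per group), linear to 0.4 and on a log scale beyond; black points have an unadjusted p under 0.05, red bars are group medians, and the dashed line is the median of all tested genes (0.01). The medians of metals, Slc35 members, ions and other organic solutes lie between -0.07 and -0.04, that of amino acid carriers at 0.03.

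The fitted rises in SCNx with the smallest p rested on single mice. Slc8a1, a sodium-calcium exchanger, ranged from 1.31 CPM over 1.85 to 71.6 in SCNx and from 1.06 over 1.80 to 10.8 in Ctrl, the highest mice being SCNx CT32 and Ctrl CT4. Its log2 fold change of 1.60 ± 0.69 became -0.33 without SCNx CT32. Slc6a11, which takes up the transmitter GABA, and Slc7a14, of the cationic amino acid family, were highest in the same mice, with 135 and 39.2 CPM in SCNx CT32, while their group medians lay between 0.642 and 1.30 CPM. Slc38a4, an amino acid carrier, and Slc27a5, which couples bile acids to coenzyme A in liver, reached 85.4 and 114 CPM in SCNx CT0 and were next highest in Ctrl CT16 (17.002 and 12.0 CPM), against medians of 0.281 CPM or less in both groups.

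In all, 20 members were more than 5 times the median of their group in the highest library of Ctrl, of SCNx or of both. Some passed in 1 group only, such as Slc1a4 (1.87 times the median in Ctrl) and Slc9a2 (1.25 times in SCNx). In Ctrl, Slc13a3 was high in both CT16 and CT4 (16.2 and 15.4 CPM). The highest Ctrl library of the 20 was CT4 for 14 and CT16 for 6, and their highest SCNx library was CT32 for 12 and CT0 for 6, with 1 each at CT36 and CT44. Slc1a2, the glutamate carrier of astrocytes and itself a gene of that marker list, reached 466 CPM in Ctrl CT4 and 256 in SCNx CT32, against medians of 7.50 and 6.40 CPM. Apart from the last 2, their highest libraries thus were those with the high sums of astrocyte, neuron or hepatocyte markers, and the part of these cells in the values was not tested.

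**Figure D4:**
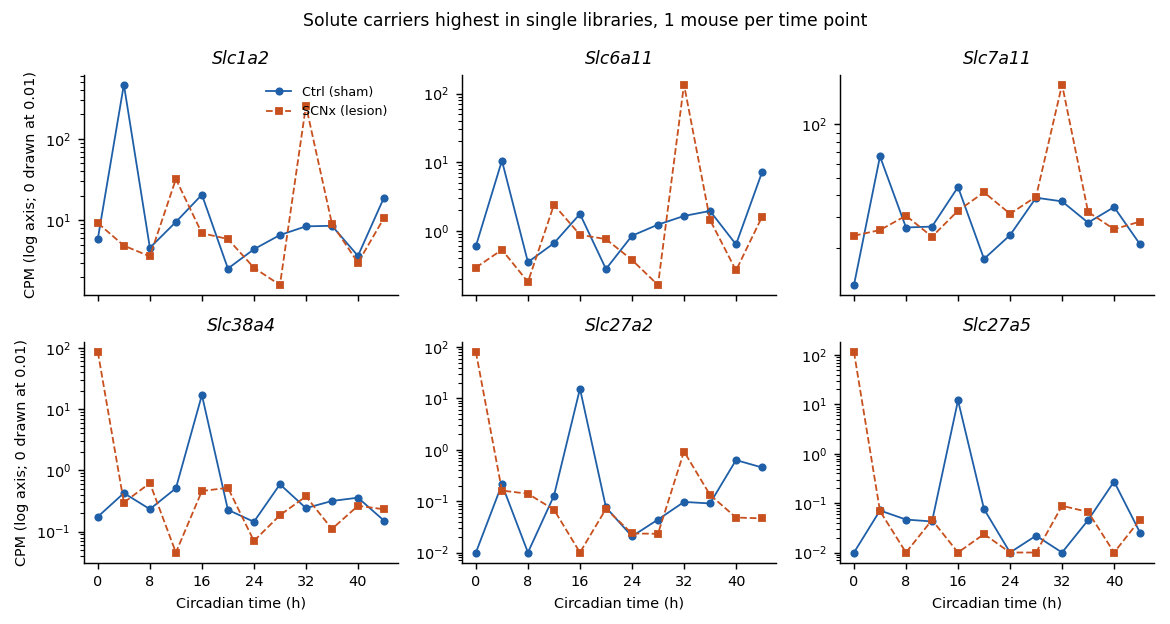
CPM on a log axis against circadian time in hours for 6 of the 20 carriers highest in single libraries, 1 mouse per point, Ctrl as blue circles and SCNx as orange squares, with values of 0 drawn at 0.01. Slc1a2, Slc6a11 and Slc7a11 crest in Ctrl CT4 and SCNx CT32, and Slc38a4, Slc27a2 and Slc27a5 in Ctrl CT16 and SCNx CT0.

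In KO, with 1 mouse per time, values were only described, and intervals cover counting error only. Of the 150 members, 110 had at least 100 counts in both KO libraries, and 1 of them differed more than 2-fold (0.909%, background 0.658%). This was Slc7a11, with 631 counts (37.8 CPM) at ZT7 and 1613 (85.6 CPM) at ZT18, a log2 difference of -1.18 (95% interval -1.32 to -1.05). In the 12 Ctrl mice it ranged from 12.4 CPM over 27.2 to 66.002, without a rhythm that passed the test. Slc7a11 was highest in Ctrl CT4 and SCNx CT32, the libraries with the brain markers, and both KO libraries held astrocyte markers at a like height (780 and 816 CPM). The 2 KO libraries also differed in markers of fibroblasts (266 CPM at ZT7 and 396 at ZT18), neurons (424 and 550), oligodendrocytes (320.0 and 428) and the ChP epithelium (89958 and 78475), and their part in the difference was not tested.

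The next members lower at ZT7 were Slc24a3 with -0.64, the taurine carrier Slc6a6 with -0.60 and the lysosomal amino acid carrier Slc36a1 with -0.57. Higher at ZT7 were the anion exchanger Slc26a7 with 0.94, Slc24a4 with 0.79, Slc39a12 and Slc24a5 with 0.57 each, and the neutral amino acid carrier Slc6a15 with 0.55. Slc24a3, Slc24a4 and Slc24a5 exchange sodium for calcium and potassium, and 39.5% of the exonic bases of Slc24a5 are shared with Myef2 on the opposite strand. By substrate, 9 of 31 amino acid carriers, 5 of 15 ion carriers and 11 of 23 carriers of other organic solutes were higher at ZT7, and 14 of 18 metal carriers and 15 of 21 Slc35 members (all members 49.1%, background 51.4%). Scaling by library size alone lowered the median of all genes from 0.01 to -0.11, and 12 of 18 metal carriers, 11 of 21 Slc35 members and 5 of 31 amino acid carriers were then higher at ZT7.

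For the 14 members rhythmic in Ctrl, the KO difference can be set beside the fitted curves at the same hours, with the reserve that KO mice were in a light-dark cycle. In Ctrl the curve was higher at 7 h than at 18 h for 12 of the 14, and in KO the ZT7 library was lower than the ZT18 library for 12 of the 14. These 12 include Slc41a3, which had 27 and 49 counts and lay below the minimum of 100 used above. Slc7a10 had a difference of 1.03 ± 0.17 in Ctrl (SE), 0.00 ± 0.15 in SCNx and 0.15 in KO (1319 and 1337 counts). Slc41a1 had 0.38 ± 0.05, 0.06 ± 0.07 and -0.47 (795 and 1242 counts), and Slc29a4 had 0.62 ± 0.10, -0.12 ± 0.15 and -0.28. Slc35b1 had -0.51 ± 0.10, -0.21 ± 0.08 and 0.22. The sign in KO was that of the Ctrl curve for 2 of the 14. Among all tested genes with at least 100 counts in both KO libraries, 51.4% were higher at ZT7. Scaling by library size alone kept 12 of the 14 lower at ZT7, and moved Slc7a10 to 0.03 and Slc35b1 to 0.10. The 95% counting interval left out 0 for 9 of the 14, but it does not cover the choice of scaling. For this interval no share over all genes was computed.

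**Figure D5:**
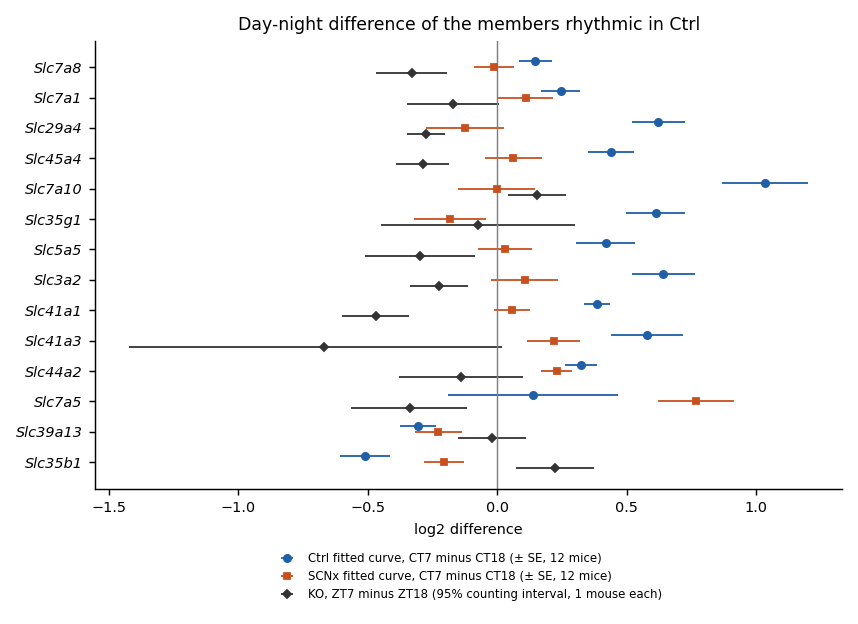
log2 difference between 7 h and 18 h for the 14 carriers rhythmic in Ctrl: fitted curves of Ctrl (blue) and SCNx (orange) with SE over 12 mice, and KO as ZT7 minus ZT18 (black) with the 95% counting interval of 1 mouse at each time. In Ctrl 12 carriers lie right of 0, Slc7a10 farthest at 1.03, and in KO 12 lie left of 0, with the widest interval for Slc41a3 (27 and 49 counts).

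Genes that work with these carriers were looked up in lists of zinc buffering, nucleotide sugar synthesis, the response to amino acid starvation and amino acid sensing at the lysosome. The lists are short and their counts are a description, beside 10.7% of all tested genes that were rhythmic in Ctrl. Of 4 tested genes of zinc buffering and sensing, the metallothionein Mt1 was rhythmic in Ctrl with 22.9 ± 6.23 CPM, an amplitude of 0.38 ± 0.12 and a peak at 10.97 h (edgeR adjusted p = 0.0359). Of 24 genes of nucleotide sugar synthesis, Gmds and Uap1 were rhythmic with peaks at 22.8 and 19.2 h. Gmds acts in the synthesis of GDP-fucose, and Uap1 makes UDP-N-acetylglucosamine. Of 11 genes of the starvation response, Phgdh, the first enzyme of serine synthesis, was rhythmic with a peak at 9.61 h (adjusted p = 0.0127, edgeR). Of 21 genes of lysosomal sensing, the arginine sensor Castor1 and Nprl3, a subunit of the complex that restrains mTORC1, were rhythmic with peaks at 11.6 and 8.19 h, and the rhythm of Nprl3 differed between the groups (adjusted p = 0.04996, edgeR). No gene of these lists was rhythmic in SCNx or differed in level at an adjusted p under 0.05 by edgeR (background 0% for both).

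The promoters of 4 members are printed to show what sequence lies at the start of the exchanger with the largest fall in amplitude, of both rhythmic magnesium carriers, which peaked together, and of the carrier with the largest difference in KO. They come from RefSeq on the build GRCm38.p6, from 250 bases before to 50 after the start, 5′ to 3′ on the strand of the gene, and capitals mark an E-box or an amino acid response element. Slc41a1 lies at chr1:131827762-131828061 on the plus strand, Slc41a3 at chr6:90618996-90619295 on the plus strand, Slc7a10 at chr7:35186135-35186434 on the plus strand, and Slc7a11 at chr3:50443564-50443863 on the minus strand.
Slc7a10: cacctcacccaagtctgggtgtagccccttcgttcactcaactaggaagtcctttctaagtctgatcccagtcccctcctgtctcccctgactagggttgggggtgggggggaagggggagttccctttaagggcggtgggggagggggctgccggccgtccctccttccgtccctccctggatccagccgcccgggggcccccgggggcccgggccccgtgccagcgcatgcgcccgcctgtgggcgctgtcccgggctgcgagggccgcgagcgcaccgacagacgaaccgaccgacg
Slc41a1: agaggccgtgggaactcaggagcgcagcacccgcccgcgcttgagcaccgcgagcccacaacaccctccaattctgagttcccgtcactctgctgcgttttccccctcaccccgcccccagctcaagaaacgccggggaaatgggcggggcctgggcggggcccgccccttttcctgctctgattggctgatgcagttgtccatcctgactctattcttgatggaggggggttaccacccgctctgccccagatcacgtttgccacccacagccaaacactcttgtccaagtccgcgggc
Slc41a3: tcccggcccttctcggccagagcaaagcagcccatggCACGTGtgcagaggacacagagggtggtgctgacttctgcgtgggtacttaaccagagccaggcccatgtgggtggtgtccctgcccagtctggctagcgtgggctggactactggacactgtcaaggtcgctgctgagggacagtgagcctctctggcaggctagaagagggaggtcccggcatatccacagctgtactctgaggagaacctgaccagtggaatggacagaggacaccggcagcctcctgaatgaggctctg
Slc7a11: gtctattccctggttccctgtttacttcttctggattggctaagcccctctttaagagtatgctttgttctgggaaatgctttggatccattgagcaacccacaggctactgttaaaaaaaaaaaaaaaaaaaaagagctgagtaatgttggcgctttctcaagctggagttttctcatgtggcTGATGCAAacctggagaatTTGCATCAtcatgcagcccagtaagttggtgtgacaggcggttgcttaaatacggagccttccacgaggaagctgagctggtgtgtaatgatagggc

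The E-box CACGTG, which the clock proteins CLOCK and BMAL1 bind, stood in 19 of the 117 members with a promoter in the table and in 8.09% of all genes with one. Of the 12 rhythmic members with a promoter, Slc41a3 had it, at position -213 from the start. The D-box, searched as TTATGTAA or TTACGTAA, and the ROR element, searched by its extended motif, stood in no member and in 1.23% and 0.459% of all genes. The amino acid response element TGATGCAA stood in 4 members (Slc1a4, Slc50a1, Slc7a7 and Slc7a11) and in 1.03% of all genes, and Slc7a11 had it at positions -66 and -47, once on each strand. The metal response element, searched as TGCGCNC or TGCACNC, stood in 8 of 17 metal carriers with a promoter, in 49 of 117 members and in 28.2% of all genes. All motifs were searched on both strands, and a match is a description of letters in this window.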

How the data were processed

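The deposited tables hold estimated counts per gene, which the authors made with the nf-core/rnaseq pipeline 3.10.1 (STAR, Salmon 1.9.0) on GRCm39 with Ensembl 104 and did not normalize. The KO libraries were deposited in a table of their own and were scaled separately. The counts were rounded to whole numbers, and 13697 genes passed a minimum of 1 CPM on average in each of both groups. In edgeR 4.0.16 (R 4.3.3), with TMM scaling, each group of the 24 libraries was given its own mean and its own 24 h curve, as cosine plus sine. Levels were compared in a model with a mean per group. The threshold was an adjusted p of 0.05 (quasi-likelihood test, Benjamini-Hochberg over 13697 genes). Every time point of a group was 1 mouse, so p-values measure the spread between mice around the curve or mean. This spread was estimated in common for both groups. SE of amplitudes reflect how log2 CPM scattered about that curve. KO used a prior count of 1, exact binomial intervals and, for counts over members and for named differences, at least 100 counts in both libraries. The 14 members rhythmic in Ctrl were shown in KO whatever their counts. With 38751201 counts or more in Ctrl and SCNx, depth limits members above the minimum little. The rank test used 132 templates and 1000000 random orders in Python 3.11.15 with numpy 2.4.6 and pandas 2.3.3. DESeq2 1.42.0 and limma 3.58.1 served as alternatives. The study set its rhythm threshold with other programs, which were not run here. The fits were tested on simulated data.

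The members and lists were chosen with earlier results of these data known. Named members were those past a test, the 3 highest in each substrate group, the 5 smallest p in each direction between groups, the 5 largest KO differences in each direction, the 3 on each side of the minimum, Slc3a2 with its light chains, Slc30a5 with Slc30a6, and members over 5 times their group median in 1 library. Of the KO differences, 1 is not reported here. The lists of cell type markers covered astrocytes, neurons with cerebellum, hepatocytes, ChP epithelium, oligodendrocytes, blood, ependyma with cilia, macrophages, endothelium and fibroblasts. Medians of the summed markers in Ctrl and SCNx were 125 and 166 CPM for endothelium, 42.6 and 48.1 for macrophages, 388 and 398 for fibroblasts, 74.4 and 67.5 for oligodendrocytes, 201 and 193 for ependyma and cilia, and 889 and 539.7 for blood. Lengths came from GENCODE M21 (GRCm38), found for all 150 members, and served for CPM per kb only. The strand setting of the counting is not given in the sources used here, and 38 members share exonic bases with a gene on the opposite strand and 6 on the same strand. Where strand was not used, reads of such pairs cannot be told apart.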

Additional observations from a re-analysis of the deposited data

Results flagged for a closer look

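The 24 h rhythm differed between Ctrl and SCNx by the test of the difference itself for 4 carriers, with edgeR adjusted p values of 0.0139 for Slc7a8, 0.0311 for Slc7a10, 0.0344 for Slc29a4 and 0.0478 for Slc35g1. Each had the larger fitted amplitude in Ctrl (0.20 against 0.08, 0.53 against 0.04, 0.34 against 0.07, and 0.31 against 0.09 log2 units).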

How the results depend on the processing

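In Ctrl 14 members were rhythmic, with 11 to 31 when 1 library was left out (24 without Ctrl CT0, background 10.9%, and 31 without SCNx CT32, 16.6%), 30 without Ctrl CT4 and SCNx CT32 (16.5%) and 26 by DESeq2 (15%). Without a filter on low counts there were 13 (2.77%), and Slc5a5, Slc39a13 and Slc41a3 lost their calls (edgeR adjusted p = 0.0884, 0.105 and 0.276). The rank test called 12 at a Q value under 0.05 (6.74%), and 89 at the looser limit of 0.4 (50.6%). In SCNx there were 0, and 0 to 0 with 1 library left out, but 13 without a filter on low counts (background 3.44%) and 9 by DESeq2 (3.15%). The rhythm differed for 4 members, with 1 to 5 when 1 library was left out, 9 without a filter (background 1.62%), 1 with a linear trend added (2.49%), 2 without Ctrl CT16 and SCNx CT0 (1.57%), and 9 by DESeq2 (4.3%). The count of members whose level differed was 0 in every alternative run, 0 to 0 with 1 library left out included. A count of 0 says little about stability: those lower at an unadjusted p under 0.05 were 21, and 12 to 28 with 1 library left out. The KO count was 1 with every prior count and without TMM scaling, which was added after seeing the data. Without Ctrl CT4 and SCNx CT32, 2 members, and without Ctrl CT16 and SCNx CT0, 4, fell below the minimum and were not tested.

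The log2 fold change turned negative for Slc8a1 without SCNx CT32 (-0.33), and for Slc7a14 without SCNx CT32 (-0.58), without Ctrl CT4 and SCNx CT32 (-0.13) and by DESeq2 (-0.11). It turned negative for Slc6a11 by limma-trend (-0.43) and DESeq2 (-0.88), for Slc27a5 by limma-trend (-0.072) and DESeq2 (-0.78), and for Slc38a4 by limma-trend (-0.034) and DESeq2 (-0.078). In each of these the fitted rise rests on the highest library, and otherwise the cause was not tested.

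With circadian time as a replicate block the count of differing levels was 0, and the log2 fold changes turned negative for Slc6a11 (-0.67), Slc27a5 (-0.58), Slc7a14 (-0.065) and Slc38a4 (-0.30). The numbers mark a shared time and no shared animal: deviations of same-numbered mice had correlations of -0.44 to 0.33 over 12 pairs, and 1 of 12 Ctrl libraries matched its own number best.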
